A study of Rattus norvegicus with 6 samples.

Results

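The genes described here carry signals from cell-surface receptors through G proteins to calcium and cyclic nucleotides. They were chosen by gene symbol, as the phospholipase C, calcium release channel, calcium pump, calmodulin, calmodulin kinase, protein kinase C, protein kinase A, G protein subunit, adenylyl cyclase, phosphodiesterase and RGS (regulator of G protein signalling) names on the array. The symbols matched 158 probe sets of 110 genes, out of 10411 genes on the array, and where a gene had several, the one with the brightest mean log2 signal stood for it. Another 5 probe sets carried several symbols, such as Gnai1 with Gnai3, and were left unnamed. Messenger RNA was measured in AR42J, an established rat line of exocrine pancreatic tumour origin, on 6 Affymetrix Rat 230A arrays, 1 per culture. The dexamethasone group (n = 3) had received 100 nM of this synthetic glucocorticoid for 48 h in medium with 5% serum, and the control group (n = 3) had been kept in that medium for the same time without it. All cultures came from frozen stocks at passage 29, were plated for 24 h in 20% serum, and belonged to 3 experiments, each with a treated and a control culture. A single line, dose and time were thus sampled.

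A receptor that binds its hormone loads the G protein alpha subunit with GTP, and the alpha subunit and the beta-gamma pair then act on enzymes. Gq-type subunits switch on phospholipase C beta, which makes inositol trisphosphate and diacylglycerol; the first opens calcium channels of the endoplasmic reticulum and the second activates protein kinase C. Gs and Gi raise and lower the output of adenylyl cyclase, whose product cyclic AMP activates protein kinase A until phosphodiesterases break it down, and RGS proteins end the signal by speeding GTP hydrolysis on the alpha subunit. In pancreatic acinar cells the calcium arm, driven by acetylcholine and cholecystokinin, is the main trigger of enzyme secretion, and cyclic AMP enhances it.

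Markers were checked against the cell label: all 12 acinar markers on the array were above background on all 6 arrays, whereas of 6 immune markers none was above background on all arrays, and Ptprc and Itgam were above it on no array. Genes listed for other cell types were detected too. All 4 duct markers on the array (Krt19, Krt7, Muc1 and Car2) were above background on all 6 arrays, as the acinar markers were. Also above it on all 6 were Ins1, Chga and Chgb (3 of 8 islet and neuroendocrine genes), Col1a1, Col3a1, Dcn and Acta2 (4 of 7 stromal genes) and Pecam1 (1 of 3 endothelial genes). Background was the highest signal of 27 bacterial control probe sets on each array, 83.7 to 115.9 in dexamethasone arrays and 51.7 to 97.3 in control arrays. The summed signal of the acinar markers was 126196 to 143019 with dexamethasone and 83521 to 98470 in controls, and that of 4 duct markers was 945.6 to 2222 with dexamethasone and 3014 to 4214 in controls. The summed islet and neuroendocrine signal was 6368 to 9851 with dexamethasone and 6138 to 6444 in controls, the stromal sum 935.1 to 1085 with dexamethasone and 876.9 to 1047 in controls, and the endothelial sum 258.9 to 427.3 with dexamethasone and 169.1 to 252.7 in controls. The part of these shifts in the changes below was not tested, and in bulk RNA fewer cells of a type cannot be told apart from less RNA per cell. Of the 110 genes, 71 were above background on all 6 arrays and 15 on none. The 15 were Gng8, Gng11, Rgs1, Rgs10, Rgs18, Ryr1, Ryr2, Camk1g, Adcy4, Adcy5, Adcy8, Pde1a, Pde1b, Pde7b and Pde9a. The filter on low signal (a geometric mean of at least 147.6 over the 6 arrays) left 62 genes for testing and 48 untested.

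With dexamethasone, 8 of the 62 tested genes rose and 21 fell at an adjusted p under 0.05, and 33 did not pass. Among all 7051 genes tested, 17% rose and 21.4% fell, 38.4% in all; of the signalling genes tested, 12.9% rose and 33.9% fell, 46.8% in all. Their median log2 change was -0.20, against -0.04 over all genes tested. Without replicate 1 it was -0.09, against -0.04 over all probe sets tested, a difference of -0.05 where all 3 experiments gave -0.15. Tests were limma's on log2 signal with the experiment as a block, log2 changes are dexamethasone minus control with the SE, and p-values were adjusted by Benjamini-Hochberg over all 9520 probe sets tested. The balance of directions depended on scaling: with the deposited values 27.6% of the called signalling genes were risers. Centring each array on the 75th percentile of its signals made this 43.8% (14 risers and 18 fallers), and scaling to the spiked hybridization controls made it 12.5% (4 risers and 28 fallers). The median over all probe sets tested was -0.05 as deposited, 0.08 with centring and -0.29 with control scaling. Dexamethasone and control signals did not overlap for 39 of the 62 signalling genes, against 51% of all genes tested. All 8 risers and all 21 fallers moved the same way in all 3 experiments. Among all genes tested, 1189 of 1196 risers and 1505 of 1509 fallers did so. The calls were made on these same experiments, so this is no separate check.

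**Figure D1:**
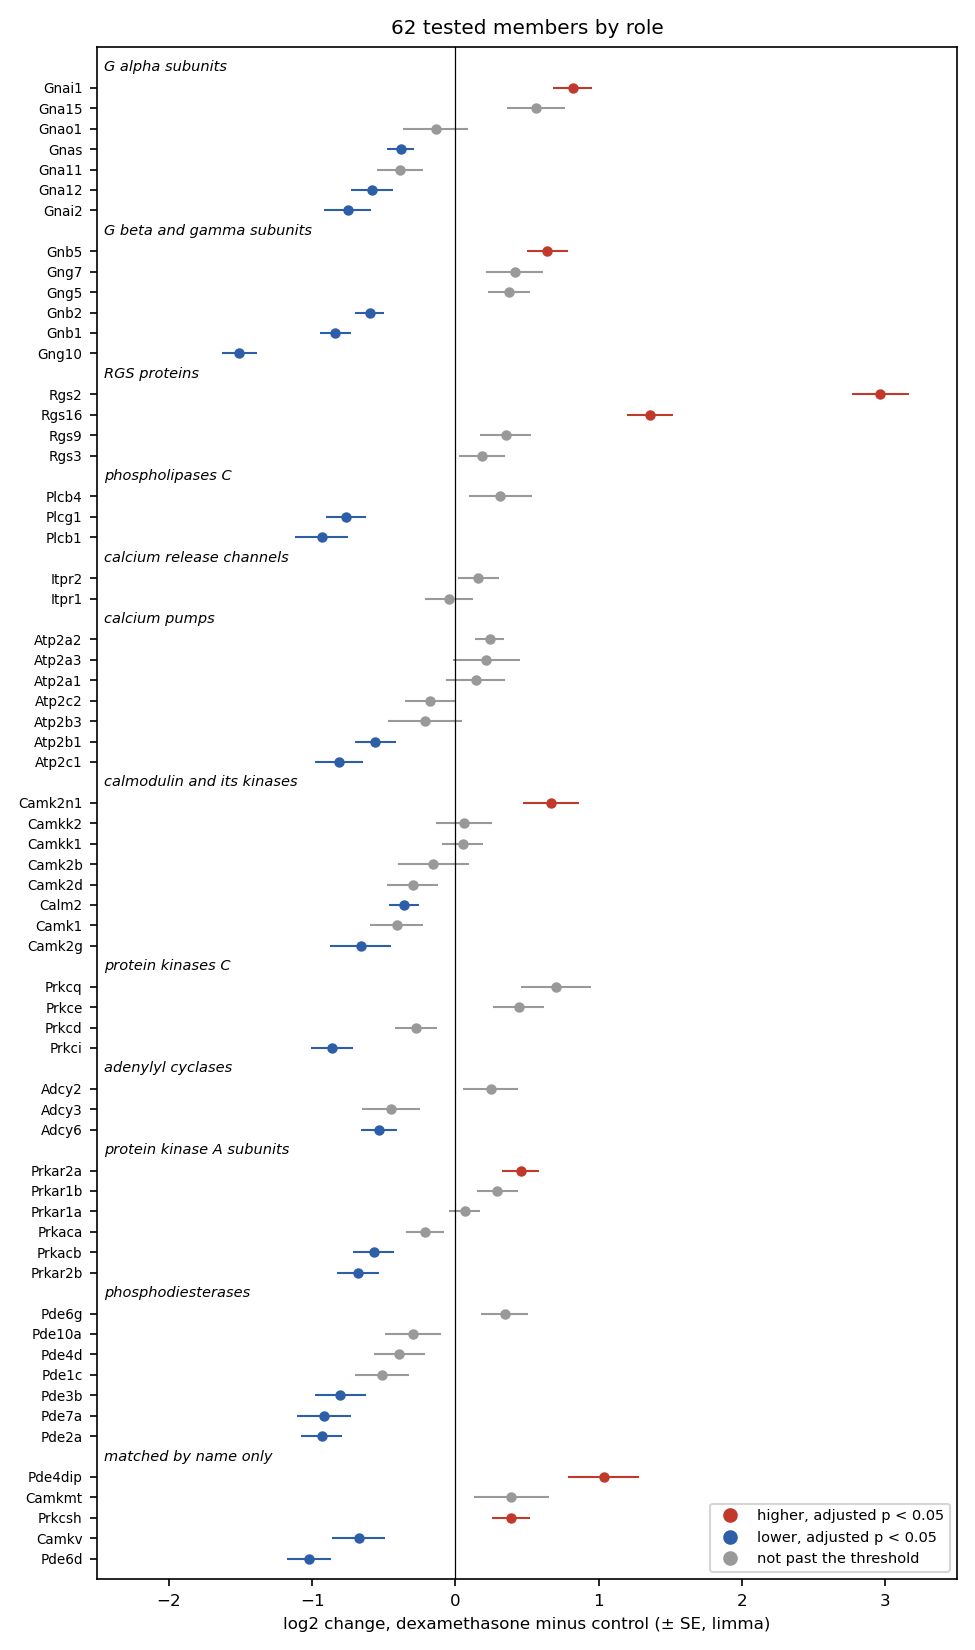
Log2 change (dexamethasone minus control, x axis, ± SE from limma) of each tested signalling gene, grouped by role. Red points rose, blue points fell and grey points did not pass an adjusted p of 0.05; Rgs2 lies farthest to the right at 2.97 and Gng10 farthest to the left at -1.51.

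Changes of at least 2-fold were few: 3 of the 62 tested genes rose and 2 fell that far, against 5.38% and 6.58% of all genes tested. They were Rgs2, Rgs16, Gng10, Pde4dip and Pde6d, and Pde4dip passed the filter on low signal only through its treated signals. For the first 3, which are signalling proteins in the strict sense, the 250 bases before the RefSeq transcript start (build GRCr8) are shown 5′ to 3′ on the gene's strand, because these 3 genes moved at least 2-fold. Capitals mark a TGACG half-site of the cyclic AMP response element, on either strand. Rgs2 is at chr13:58352667-58352916 (minus strand), Rgs16 at chr13:68437870-68438119 (plus strand) and Gng10 at chr5:78650917-78651166 (plus strand).
Rgs2: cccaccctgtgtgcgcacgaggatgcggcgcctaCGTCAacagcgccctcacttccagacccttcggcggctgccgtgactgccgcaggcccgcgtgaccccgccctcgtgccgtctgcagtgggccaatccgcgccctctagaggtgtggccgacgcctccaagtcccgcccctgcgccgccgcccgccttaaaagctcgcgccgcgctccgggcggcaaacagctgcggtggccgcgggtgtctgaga
Rgs16: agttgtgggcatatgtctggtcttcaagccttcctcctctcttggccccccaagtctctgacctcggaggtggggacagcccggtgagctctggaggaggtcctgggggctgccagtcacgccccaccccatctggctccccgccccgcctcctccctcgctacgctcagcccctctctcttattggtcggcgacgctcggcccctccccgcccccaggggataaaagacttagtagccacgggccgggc
Gng10: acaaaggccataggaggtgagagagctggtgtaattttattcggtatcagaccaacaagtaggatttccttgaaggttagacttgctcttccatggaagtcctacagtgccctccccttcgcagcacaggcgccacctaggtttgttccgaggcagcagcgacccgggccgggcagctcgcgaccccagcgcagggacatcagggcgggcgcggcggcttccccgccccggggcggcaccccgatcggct

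Short motifs were searched on both strands of these windows: the glucocorticoid receptor half-site AGAACA, the half-site TGACG and the AP-1 site TGANTCA, the last 2 of which can share letters. The Rgs2 window held 1 match, a TGACG half-site starting 216 bases before the transcript start, and the Rgs16 and Gng10 windows held none of these motifs. Of the 110 genes, 86 had a window in the RefSeq table. TGACG occurred in 21 of these 86 (24.4%), against 18.2% of all 33469 windows, and AGAACA in 5 (5.81%), against 17.5%. None of the 6 risers or 15 fallers with a window held AGAACA, and TGACG occurred in 3 of these 6 and 2 of these 15. TGANTCA occurred in 2 of the 86 windows (2.33%), against 6.34% of all windows. The 33469 windows were not limited to 1 per gene or to genes on the array. A match is a string of letters and not a measured binding site, and windows of 250 bases leave out distant sites.

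RGS proteins had 2 risers and no faller among 4 tested of 15, and both risers were the signalling genes with the largest rises. Rgs2, which turns off Gq and so limits the calcium response, had signals of 1307, 1144 and 1544 in dexamethasone cultures and 134.6, 216.1 and 166.5 in control cultures. Every treated signal was far above every control signal, and the change was 2.97 ± 0.20 (adjusted p = 1.01e-05), or 7.81-fold. A dimmer probe set of Rgs2, too low on average to be tested, read 562.8, 558.7 and 681.4 with dexamethasone and was above background on no control array, at 14.8, 47.3 and 24.2. Rgs16, which acts on Gi and Gq, had signals of 1271, 769.0 and 1236 with dexamethasone and 507.1, 373.4 and 379.6 in controls. The groups did not overlap, although dexamethasone 2 lay well below the other treated cultures, and the change was 1.36 ± 0.16 (adjusted p = 0.00029). Rgs9 and Rgs3 did not pass (0.35 ± 0.18, adjusted p = 0.154, and 0.19 ± 0.16, adjusted p = 0.410). The 2 calls for Rgs2 and Rgs16 held under all 11 alternative settings, with log2 changes of 2.64 to 3.25 and of 1.11 to 1.51.

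**Figure D2:**
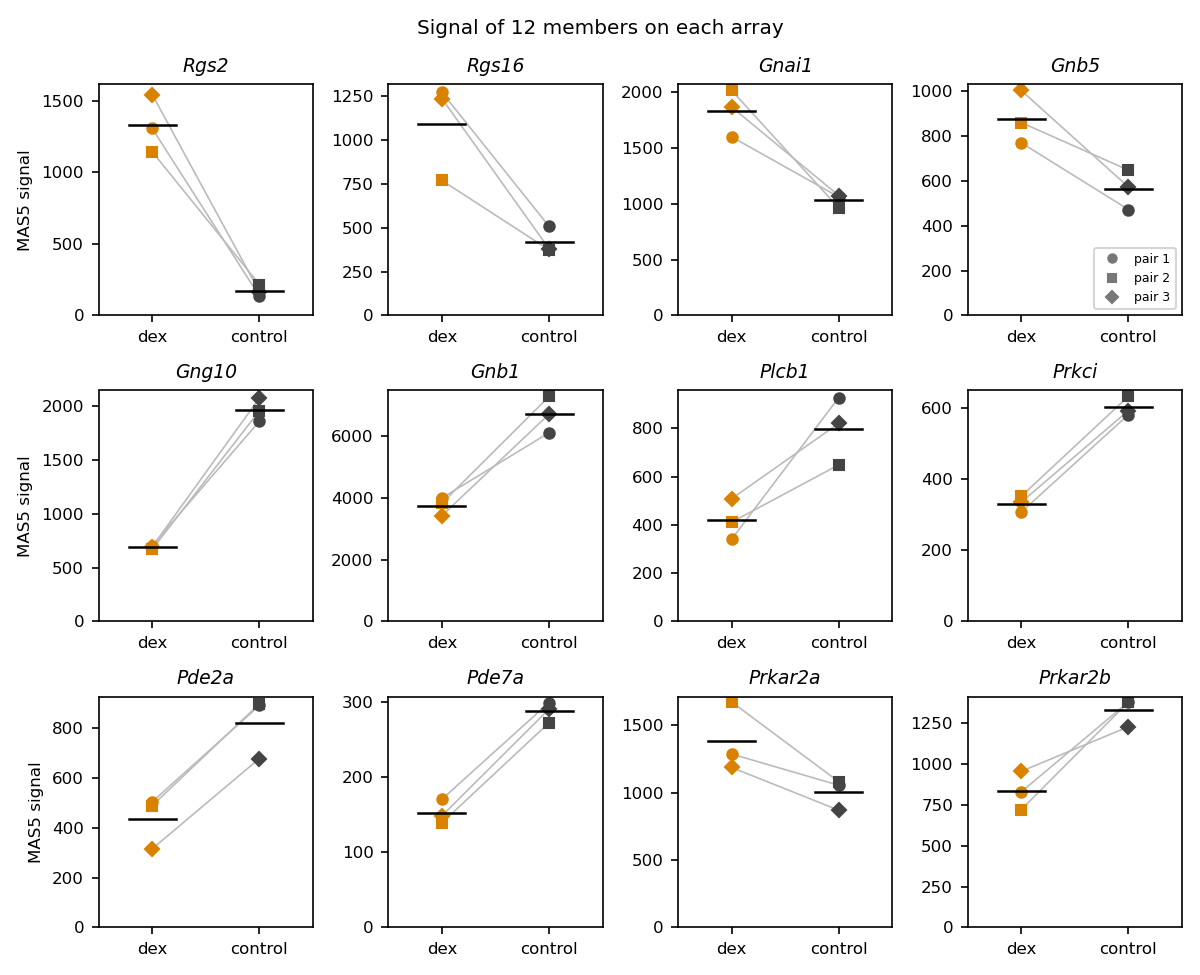
MAS5 signal (y axis, linear, from 0) of 12 signalling genes in each culture, with dexamethasone cultures on the left of each panel and control cultures on the right; grey lines join the cultures of 1 experiment and black bars are group means. The 3 Rgs2 signals with dexamethasone (1144 to 1544) lie far above the controls (134.6 to 216.1), and the 3 Gng10 signals (671.7 to 705.2) lie far below theirs (1860 to 2075).

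Among G protein alpha subunits, 1 rose, 3 fell and 3 did not pass of 7 tested out of 9. Gnai1, an inhibitory subunit of the adenylyl cyclase pathway, had signals of 1600, 2016 and 1867 with dexamethasone and 1061, 962.8 and 1074 in controls (0.82 ± 0.13, adjusted p = 0.00174). Gnai2, a close relative of Gnai1, went the other way, with 310.2, 442.2 and 300.6 in treated cultures and 608.7, 598.8 and 542.1 in controls (-0.75 ± 0.16, adjusted p = 0.00743). The groups of both genes were separate, so these 2 inhibitory subunits moved in opposite directions in all 3 experiments. Gnao1, a further alpha subunit tested, had overlapping groups and did not pass (-0.14 ± 0.23, adjusted p = 0.668). Gna12, another alpha subunit, fell by 0.58 ± 0.15 (adjusted p = 0.0136), and a second probe set gave a change short of the threshold (-0.37 ± 0.17, adjusted p = 0.122). Gnas, the stimulatory subunit, averaged 7186 ± 408 with dexamethasone and 9424 ± 1365 in controls (SD, n = 3 each; -0.38 ± 0.10, limma adjusted p = 0.014). Its other tested probe set read the opposite way without passing (0.63 ± 0.24, adjusted p = 0.0667). Of the Gq class, Gna11 (-0.39 ± 0.16, adjusted p = 0.0929) and Gna15 (0.56 ± 0.20, adjusted p = 0.0547) did not pass, and the probe set of Gnaq was too dim to be tested. The call for Gnas was lost with 75th percentile centring (adjusted p = 0.0696), with no intensity trend (adjusted p = 0.0765) and without replicate 2 or 3 (-0.32 and -0.37, adjusted p = 0.0603 and 0.0514), and that for Gna12 without replicate 2 (-0.48, adjusted p = 0.0821).

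Of 6 tested beta and gamma subunits, out of 11, 3 fell, 1 rose and 2 did not pass. Gng10, a gamma subunit, had signals of 705.2, 671.7 and 693.7 in dexamethasone cultures and 1860, 1957 and 2075 in control cultures. Both groups were tight and far apart, and the change was -1.51 ± 0.12 (adjusted p = 3.35e-05), a fall of 2.84-fold. Gnb1 and Gnb2, widely expressed beta subunits, also fell: Gnb1 read 4000, 3832 and 3427 with dexamethasone and 6118, 7292 and 6722 in controls (-0.84 ± 0.11, adjusted p = 0.000465). Gnb2 averaged 3339 ± 85 with dexamethasone and 5064 ± 309 in controls (SD, n = 3 each; -0.60 ± 0.10, limma adjusted p = 0.00222). The probe sets of Gnb1 disagreed, since a second fell (-0.65 ± 0.15, adjusted p = 0.00826) and another rose (0.53 ± 0.16, adjusted p = 0.033), and the second of Gnb2 did not pass (-0.19 ± 0.24, adjusted p = 0.585). Gnb5, an atypical beta subunit that pairs with some RGS proteins, rose, with signals of 769.7, 859.9 and 1003 in treated cultures and 472.2, 647.7 and 572.6 in controls (0.64 ± 0.14, adjusted p = 0.00859). Its call was lost with hybridization control scaling (0.40, adjusted p = 0.0756), while those for Gng10, Gnb1 and Gnb2 held in all 11 settings. Gng5 (0.38 ± 0.15, adjusted p = 0.0738) and Gng7 (0.41 ± 0.20, adjusted p = 0.137) did not pass.

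Phospholipases C, which make the second messengers of the calcium arm, counted 3 tested genes of 6, with 2 fallers and 1 that gave no call. Plcb1, a target of Gq, had signals of 340.2, 410.9 and 508.1 with dexamethasone and 927.0, 648.4 and 820.4 in controls. The groups did not overlap, and the fall was 1.45 in experiment 1 against 0.66 and 0.69 in experiments 2 and 3 (-0.93 ± 0.18, adjusted p = 0.00463). Plcg1, the form activated by receptor tyrosine kinases, had signals of 476.9, 536.4 and 565.0 with dexamethasone and 842.0, 990.3 and 851.0 in controls (-0.77 ± 0.14, adjusted p = 0.00309). Plcb4 did not pass (0.31 ± 0.22, adjusted p = 0.303), and Plcb2, Plcb3 and Plcg2 were too dim to be tested. Both falls held in all 11 settings.

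Calcium release channels showed no call: Itpr1 and Itpr2, the tested inositol trisphosphate receptors, had overlapping groups and limma changes of -0.04 ± 0.17 (adjusted p = 0.861) and 0.16 ± 0.14 (adjusted p = 0.414), and 0 of the 2 passed an unadjusted p of 0.05. A second probe set of Itpr2 gave -0.09 ± 0.17. Itpr2 averaged 718.5 ± 96.2 with dexamethasone and 641.8 ± 71.5 in controls (SD, n = 3 each). The ryanodine receptor genes Ryr1 and Ryr2 were above background on no array, and Itpr3 was above it on all 6 arrays but too dim to be tested.

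Calcium pumps return calcium to stores or to the outside, and 2 fell, none rose and 5 did not pass of 7 tested out of 9. Atp2b1, a plasma membrane pump, had signals of 419.9, 495.2 and 537.3 with dexamethasone and 697.4, 696.2 and 738.7 in controls (-0.56 ± 0.14, adjusted p = 0.015). Atp2c1, the Golgi pump, had signals of 255.2, 294.4 and 332.0 with dexamethasone and 558.7, 474.3 and 511.2 in controls, with no overlap (-0.81 ± 0.17, adjusted p = 0.00579). Atp2a2, the main pump of the endoplasmic reticulum, did not pass (0.24 ± 0.10, adjusted p = 0.0987) with 4552, 3781 and 3989 in treated cultures and 3643, 3338 and 3446 in controls, and it was past the threshold with 75th percentile centring (0.36, adjusted p = 0.0236). Its other tested probe sets gave 0.08 ± 0.16 and -0.01 ± 0.22. The call for Atp2b1 was lost without replicate 1 (-0.48, adjusted p = 0.0767) and without replicate 2 (-0.60, adjusted p = 0.0517).

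Calmodulin, the calcium sensor, and its kinases counted 8 tested genes of 12, with 1 riser, 2 fallers and 5 that gave no call. Calm2, 1 of the calmodulin genes, averaged 6009 ± 807 with dexamethasone and 7675 ± 103 in controls (SD, n = 3 each; -0.36 ± 0.11, limma adjusted p = 0.0259). Camk2n1, which encodes an inhibitor of calmodulin kinase II, rose, at 275.6, 262.2 and 326.7 with dexamethasone and 145.2, 199.9 and 203.2 in controls (0.67 ± 0.19, adjusted p = 0.0263), while a second probe set gave no call (0.21 ± 0.23, adjusted p = 0.503). Camk2g, a subunit of that kinase, was the remaining faller (-0.66 ± 0.21, adjusted p = 0.0366), and the subunits Camk2b and Camk2d did not pass (-0.15 ± 0.25 and -0.30 ± 0.18). Treated signals of Camk2g averaged 138.7, below the filter signal of 147.6, so the gene entered the test through its control signals. The upstream kinases Camkk1 and Camkk2 had overlapping groups and changes of 0.05 ± 0.14 and 0.06 ± 0.20. Without single replicates the adjusted p reached 0.185 for Calm2 (-0.27, without replicate 3; also 0.082 without replicate 2), 0.137 for Camk2n1 (0.54, without replicate 1; also 0.0668 without replicate 3) and 0.133 for Camk2g (-0.54, without replicate 2; also 0.117 and 0.0576 without replicates 1 and 3). With no intensity trend the adjusted p for Calm2 was 0.101. With no filter on dim probe sets the adjusted p was 0.0621 for Calm2, 0.084 for Camk2g and 0.06 for Camk2n1. The 2 falls were also lost with 75th percentile centring (adjusted p = 0.116 for Calm2 and 0.0743 for Camk2g) and the rise with hybridization control scaling (adjusted p = 0.101).

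Of 4 tested protein kinase C genes, out of 8, 1 fell and 3 did not pass. Prkci, an atypical form that does not need calcium or diacylglycerol and acts in cell polarity, had signals of 307.5, 352.1 and 335.3 in dexamethasone cultures and 581.9, 633.4 and 593.3 in control cultures. The groups were far apart and the 3 experiments gave nearly the same fall, 0.92, 0.85 and 0.82 (-0.86 ± 0.15, adjusted p = 0.00204). A second probe set was called lower (adjusted p = 0.0235), but it was above background in only 2 of 3 treated cultures. Its treated signals averaged 121.2, below the filter signal, so it entered the test through its control signals. Another probe set gave no call (-0.40 ± 0.19, adjusted p = 0.136). The diacylglycerol-dependent forms Prkcd (-0.28 ± 0.15, adjusted p = 0.169), Prkce (0.44 ± 0.18, adjusted p = 0.0811) and Prkcq (0.70 ± 0.24, adjusted p = 0.0504) did not pass. With quantile normalization or 75th percentile centring 2 of the 4 were called higher, and with hybridization control scaling 2 were called lower, Prkcd among them (-0.52, adjusted p = 0.0442).

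In the cyclic AMP arm, 1 of 3 tested adenylyl cyclases, out of 7, fell and 2 did not pass. Adcy6, a calcium-inhibited form, had signals of 1340, 1063 and 972.2 with dexamethasone and 1765, 1541 and 1541 in controls (-0.53 ± 0.12, adjusted p = 0.00978). The groups did not overlap, but the call was lost without replicate 2 (-0.53, adjusted p = 0.0531), and a second probe set gave no call (-0.42 ± 0.18, adjusted p = 0.102). Adcy3 (-0.45 ± 0.20, adjusted p = 0.114) and Adcy2 (0.25 ± 0.19, adjusted p = 0.352) had overlapping groups, and Adcy4, Adcy5 and Adcy8 were above background on no array.

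All 6 protein kinase A subunit genes were tested: 1 rose, 2 fell and 3 did not pass. The type II regulatory subunits, which tether the kinase to anchoring proteins, moved apart. Prkar2a had signals of 1288, 1675 and 1188 with dexamethasone and 1056, 1082 and 870.7 in controls (0.45 ± 0.13, adjusted p = 0.0243). Prkar2b had 829.4, 720.7 and 955.1 with dexamethasone and 1380, 1379 and 1228 in controls (-0.68 ± 0.15, adjusted p = 0.00721). In each experiment Prkar2a was higher and Prkar2b lower in the treated culture, and neither gene's groups overlapped. The catalytic subunit Prkacb fell by 0.57 ± 0.14 (adjusted p = 0.0143), with its groups overlapping (967.9, 1458 and 1076 with dexamethasone and 1442, 1749 and 1977 in controls), and a second probe set gave no call (-0.17 ± 0.18, adjusted p = 0.484). Prkaca, the other catalytic subunit (-0.21 ± 0.13, adjusted p = 0.237), and Prkar1a, a type I regulatory subunit (0.07 ± 0.11, adjusted p = 0.672), did not pass, although 1 further probe set of Prkar1a fell (-0.32 ± 0.11, adjusted p = 0.0446). The call for Prkar2a was lost with hybridization control scaling (0.21, adjusted p = 0.363) and without replicate 2 or 3 (0.37 and 0.46, adjusted p = 0.138 and 0.0516), that for Prkar2b without replicate 2 (-0.55, adjusted p = 0.0619), and that for Prkacb without replicate 1 or 3 (-0.57 and -0.42, adjusted p = 0.0519 and 0.0747). The 2 other tested probe sets of Prkar2a did not pass (0.45 ± 0.21, adjusted p = 0.139, and 0.08 ± 0.18, adjusted p = 0.758).

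Phosphodiesterases, which degrade cyclic nucleotides, counted 7 tested genes of 17, with 3 fallers, no riser and 4 that gave no call. Pde2a, an enzyme for cyclic AMP and cyclic GMP that cyclic GMP stimulates, had signals of 503.7, 488.2 and 315.2 in dexamethasone cultures and 889.6, 896.6 and 677.1 in control cultures (-0.93 ± 0.14, adjusted p = 0.00118). Dexamethasone 3 and control 3 were the lowest of their groups, and the falls in the 3 experiments were 0.82, 0.88 and 1.10. Pde7a, specific for cyclic AMP, had 170.5, 139.1 and 148.5 with dexamethasone and 299.2, 272.4 and 290.5 in controls (-0.92 ± 0.19, adjusted p = 0.00547). Pde3b, which cyclic GMP inhibits and which acts downstream of insulin, had 291.3, 344.3 and 333.4 with dexamethasone and 636.3, 458.2 and 609.7 in controls (-0.80 ± 0.18, adjusted p = 0.00789), a call lost without replicate 1 (-0.64, adjusted p = 0.0539). Pde10a, Pde1c, Pde4d and Pde6g did not pass, with changes of -0.51 to 0.34. The falls of Pde2a and Pde7a held in every setting that tested them. Quantile normalization and 75th percentile centring called 3 of the 7 lower and 1 higher, and hybridization control scaling called 5 lower.

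**Figure D3:**
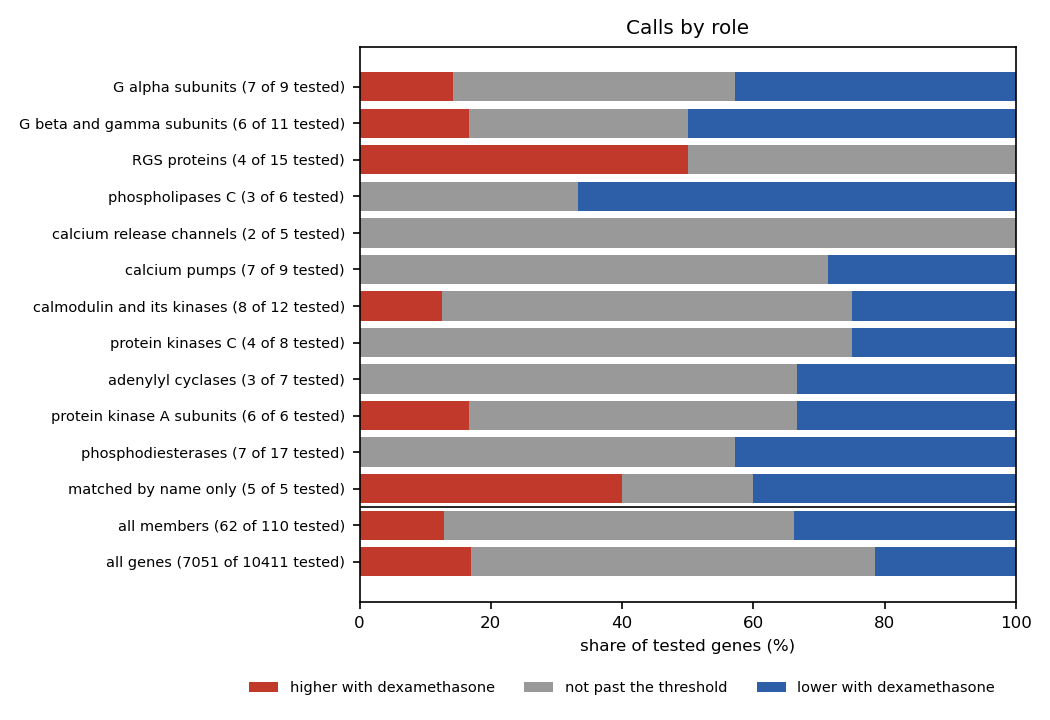
Share of tested genes (x axis, %) that rose (red), did not pass (grey) or fell (blue) with dexamethasone in each role, with all signalling genes and all genes on the array below the line; the number tested of the number on the array stands beside each name. RGS proteins have 2 risers and no faller among 4 tested. Fallers and no riser are seen in phospholipases C (2 of 3), calcium pumps (2 of 7), protein kinases C (1 of 4), adenylyl cyclases (1 of 3) and phosphodiesterases (3 of 7). Of all genes tested, 17% rose and 21.4% fell.

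The symbols also took in 5 genes whose proteins are not of these families, or not enzymes of them, and 2 of these rose, 2 fell and 1 did not pass. Pde6d, a chaperone that carries prenylated proteins between membranes, had signals of 589.3, 442.8 and 468.9 with dexamethasone and 962.0, 946.0 and 1130 in controls (-1.02 ± 0.15, adjusted p = 0.00107). Pde4dip (myomegalin), a scaffold at the Golgi and centrosome that binds a phosphodiesterase, had 260.9, 240.4 and 355.5 with dexamethasone and 151.3, 154.6 and 111.3 in controls (1.03 ± 0.25, adjusted p = 0.0109), a call lost without replicate 3 (0.71, adjusted p = 0.052). The Pde4dip controls averaged 139.1, below the filter signal of 147.6, so the gene entered the test through its treated signals. Prkcsh, the beta subunit of glucosidase II, which trims sugars on new glycoproteins, read 0.39 ± 0.13 (adjusted p = 0.0469) and was called in 5 of 11 alternative settings, with an adjusted p of 0.488 under hybridization control scaling and of 0.239 and 0.0832 without replicates 1 and 2. Camkv, a kinase-like protein with no known kinase activity, fell by 0.68 ± 0.19 (adjusted p = 0.0209), but leaving out single replicates gave an adjusted p of 0.0556 to 0.0833, and Camkmt, a calmodulin methyltransferase, did not pass (0.39 ± 0.26). Without these 5, the roles described above held 6 risers and 19 fallers among 57 tested genes, with the kinase inhibitor gene Camk2n1 among the risers.

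The partners of these families were read from lists of 163 genes, 137 of them on the array under a single symbol and 85 tested. Of these 85, 10 rose and 18 fell (11.8% and 21.2%), against 17% and 21.4% of all genes tested. Their median log2 change was -0.15. Enzymes and targets of phosphoinositides and diacylglycerol counted 35 tested genes, with 1 riser, 8 fallers and 26 that gave no call. Marcksl1, a membrane-bound protein kinase C substrate, had signals of 606.9, 549.2 and 519.7 with dexamethasone and 3344, 2756 and 3180 in controls (-2.47 ± 0.13, adjusted p = 2.4e-06). Impa2, an inositol monophosphatase that recycles inositol, fell by 1.74 ± 0.18 (adjusted p = 0.000127), and Prkd3, a kinase activated by diacylglycerol, by 1.36 ± 0.17 (adjusted p = 0.00032). The riser was Pi4ka, a phosphatidylinositol 4-kinase (0.52 ± 0.12, adjusted p = 0.0113), a call lost with hybridization control scaling and without replicate 1 (0.46, adjusted p = 0.0569) or 2 (0.54, adjusted p = 0.0503).

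Effectors and anchors of cyclic nucleotides counted 20 tested genes, with 4 risers, 4 fallers and 12 that gave no call. Gucy2c, a receptor that makes cyclic GMP, had signals of 2271, 3845 and 2081 with dexamethasone and 141.9, 266.6 and 92.9 in controls (4.11 ± 0.16, adjusted p = 8.61e-07), a rise of 17.3-fold. Akap13, an anchor of protein kinase A, rose by 1.74 ± 0.15 (adjusted p = 3.88e-05). Pkia, an inhibitor peptide of protein kinase A, had 124.3, 80.4 and 90.6 with dexamethasone and 345.2, 267.4 and 397.2 in controls. It was counted as a faller (limma adjusted p = 0.000333), but it was above background in 1 of 3 treated cultures and entered the test through its control signals, so no fold is given. Pkig, an inhibitor peptide of the same family, had 919.3, 1179 and 859.9 with dexamethasone and 1638, 1892 and 2252 in controls (-0.97 ± 0.16, adjusted p = 0.00156). Crtc3, a coactivator of the cyclic AMP responsive factor CREB, fell by 0.71 ± 0.16 (adjusted p = 0.00917), and Akap1, a mitochondrial anchor, rose by 0.73 ± 0.24 (adjusted p = 0.0387) with overlapping groups, a call lost in 4 settings, among them hybridization control scaling and leaving out replicate 1 (0.47, adjusted p = 0.221).

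Among genes of calcium entry, buffering and calcineurin, 4 rose, 4 fell and 17 did not pass of 25 tested. Eef2k, the calmodulin-dependent kinase of elongation factor 2, had signals of 286.0, 270.3 and 280.4 with dexamethasone and 141.5, 103.1 and 144.5 in controls (1.12 ± 0.20, adjusted p = 0.00305). Its controls averaged 129.7, below the filter signal of 147.6, so it entered the test through its treated signals. Cib1, a calcium-binding regulator, rose by 0.92 ± 0.14 (adjusted p = 0.00114) and Dapk3, a kinase of the death-associated family, by 0.71 ± 0.12 (adjusted p = 0.00175). Calu, a calcium-binding protein of the secretory pathway, had 300.8, 326.5 and 321.1 with dexamethasone and 733.3, 736.9 and 863.7 in controls (-1.30 ± 0.15, adjusted p = 0.000207). Dapk1, a calmodulin-regulated kinase, fell by 0.76 ± 0.17 (adjusted p = 0.00728), and Ppp3ca, a catalytic subunit of the phosphatase calcineurin, by 0.54 ± 0.13 (adjusted p = 0.0127), a call lost without replicate 1 (-0.46, adjusted p = 0.0654) or 2 (-0.51, adjusted p = 0.0725).

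Of 5 tested genes of receptor desensitization and G protein assembly, out of 15, 1 rose, 2 fell and 2 did not pass. The 10 untested ones included Grk6 and Gpsm2, both above background on all 3 control arrays and on no treated array. Grk6 read 16.4, 45.3 and 37.6 with dexamethasone and 313.4, 276.4 and 338.9 in controls. Gpsm2 read 52.0, 47.3 and 77.2 with dexamethasone and 307.3, 312.2 and 332.1 in controls. Arrb2, an arrestin that uncouples receptors from G proteins, had signals of 192.1, 170.7 and 197.3 with dexamethasone and 634.9, 477.0 and 577.1 in controls (-1.58 ± 0.16, adjusted p = 0.000125). Pdcl, a chaperone in beta-gamma assembly, fell by 0.81 ± 0.14 (adjusted p = 0.00241). Ric8a, a chaperone and exchange factor of alpha subunits, rose by 0.54 ± 0.17 (adjusted p = 0.0321), a call lost with hybridization control scaling and without replicate 1 (0.39, adjusted p = 0.178) or 2 (0.65, adjusted p = 0.0503).

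**Figure D4:**
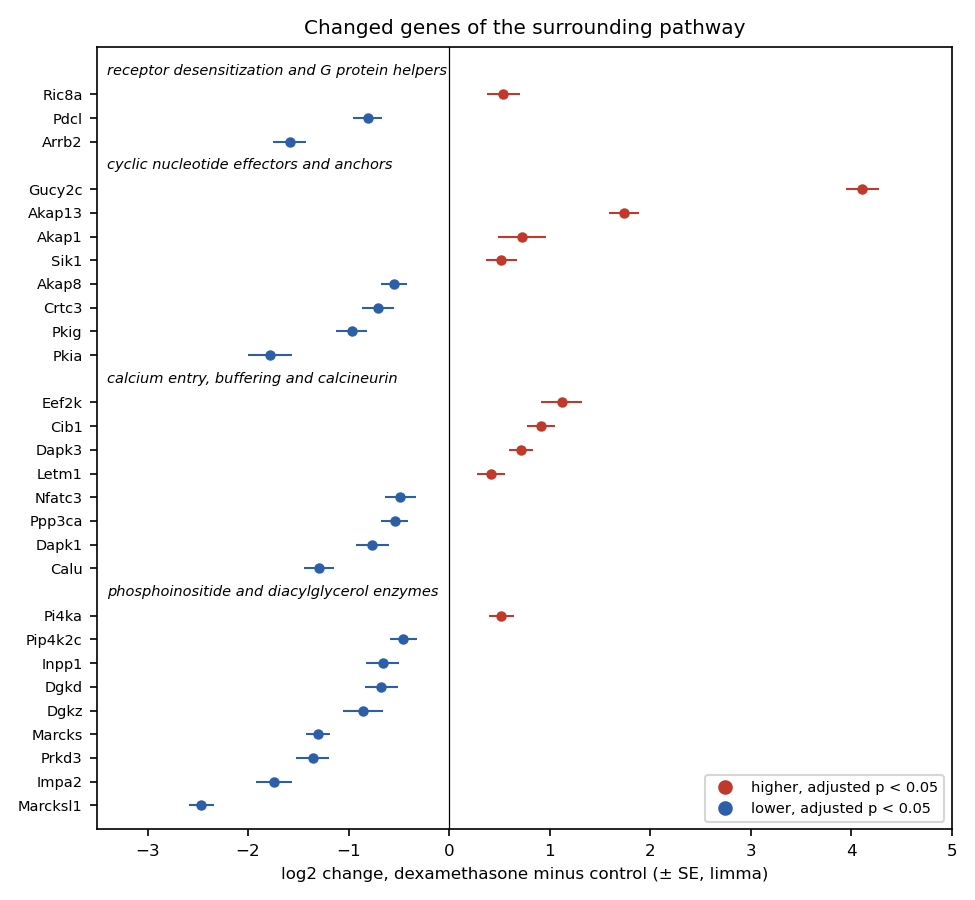
Log2 change (dexamethasone minus control, x axis, ± SE from limma) of the 28 listed partner genes past an adjusted p of 0.05, grouped by list, red for risers and blue for fallers. Gucy2c stands farthest right at 4.11 and Marcksl1 farthest left at -2.47.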

How the data were processed

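The authors deposited 1 intensity for each probe set on each array. It is a linear signal, for which the submitters' processing notes name GCOS and MAS5; versions and scaling settings are not given in the sources used here. On the deposited values each array's trimmed mean was 497.5 to 498.5, so a change in RNA per cell would not be seen. Low MAS5 signals are noisy. Symbols came from the platform annotation and NCBI gene identifiers.

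Signals were taken to log2, with 4 values of 0 set to 0.1, and probe sets with a mean log2 signal below the 40th percentile were left out. Treatment and replicate number (as a block) entered the linear model of limma 3.58.1 (R 4.3.3), with eBayes variances following an intensity trend, and the code was tested on simulated data. The block follows the series' design text, which pairs the cultures. The check of the pairing was mixed: same-numbered cultures' deviations from their group means correlated at -0.10, 0.11 and 0.21 over probe sets, and those of differently numbered cultures at -0.248 to 0.175, so the data themselves do not show the pairing. Dexamethasone 3 stood apart on the second principal component (25.3 against -11.6 and -12.6, 10% of the variance), so results without replicate 3 are given where they differ.

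Genes were named where they passed the threshold (those of at least 2-fold with the signal on every array), where they had the highest mean signal of their role, or where probe sets of a named gene disagreed; of the partner lists, the 3 largest rises and falls were named. Other genes that gave no call, and the further genes shown by array, were chosen after their values were seen. Members, lists and tests were chosen with earlier results of these data known. With 3 arrays in each group, precision is limited by their number. Alternatives were no replicate block, 3 other scalings, no filter and a filter at the 60th percentile, a pseudocount of 50, no intensity trend, each replicate left out, and each gene's second probe set.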

Additional observations from a re-analysis of the deposited data

How the results depend on the processing

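Of the 8 rises and 21 falls, 3 rises and 11 falls held in every setting that tested the same probe set, and none of these calls changed direction there. The deposited scaling gave 8 rises; 75th percentile centring gave 14 and hybridization control scaling 4. Of the partner genes, hybridization control scaling called 5 higher and 29 lower. Without 1 replicate, rises of the signalling genes numbered 6 to 7 and falls 14 to 17, and rises of partner genes fell to 5 without replicate 1. Taking the second brightest probe set for the 36 genes that have one, and the only probe set for the others, left 50 genes tested, with 4 rises and 14 falls. Without the replicate block, 8 rose and 22 fell, and all 8 and 21 calls were kept. The median log2 change of the signalling genes was -0.22 to -0.09 without 1 replicate, and its difference from the median of all probe sets tested was -0.05 without replicate 1, 0.03 with no filter and -0.32 with the stricter filter, against -0.15. The median itself was -0.44 with hybridization control scaling, -0.37 with the stricter filter (38 genes) and 0.054 with no filter (110 genes, the 48 dim ones included). Dim signals limit what can be said of the 48 untested genes.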

Other observations

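With no filter on signal, 4 of the 48 dim genes passed limma's adjusted p of 0.05, 2 higher and 2 lower, chosen here after their values were seen. Over all 15866 probe sets, bright ones included, that setting called 8.65% higher and 12.2% lower. Prkcz, an atypical protein kinase C like Prkci, read 205.2, 111.3 and 245.4 with dexamethasone and 99.0, 40.7 and 72.0 in controls, above background in 2 of 3 control cultures (adjusted p = 0.0142). Rgs22 read 167.5, 185.6 and 221.6 with dexamethasone and 105.6, 104.7 and 104.6 in controls (0.86 ± 0.24, adjusted p = 0.0485). Camk4, a nuclear calmodulin kinase, read 38.7, 91.0 and 70.2 with dexamethasone, above background in 1 of 3 cultures, and 146.5, 166.8 and 491.0 in controls (adjusted p = 0.0161). A second dim probe set of Camk4 differed less, at 115.5, 87.5 and 107.9 with dexamethasone and 118.7, 116.3 and 132.1 in controls. No fold is given for Prkcz or Camk4, since part of the dimmer group was not above background. Adcy4 was above background on no array in either group.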
